A study of Homo sapiens with 4 samples.

Results

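Stand-alone lncRNA promoters are places where a long non-coding RNA starts with no protein-coding start close by. Open chromatin at these promoters was looked at in H295R/TR SF-1 cells, and 1771 FAIRE sites were found there among 65614 sites of 2 lists. A site was taken when its centre lay within 1 kb of an annotated start of a GENCODE lncRNA, farther than 5 kb from every protein-coding start and within 200 kb of one, on chromosomes 1 to 22 and X. By this rule 882 of 34413 sites were found in the list from cells with basal SF-1 expression (2.56%) and 889 of 31201 in the list from cells with SF-1 overexpression (2.85%). The rule used positions alone and no measured value.

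H295R/TR SF-1 is a subclone of H295R, a human adrenocortical tumour cell line, in which doxycycline switches on an added copy of SF-1 (NR5A1), the nuclear receptor that drives steroidogenic genes. Both conditions carried this inducible copy. The basal cells received no doxycycline by their labels, and the overexpression cells received it for 3 days before fixation. FAIRE-seq, in which regulatory elements are isolated with the help of formaldehyde, recovers DNA that is poor in nucleosomes, and 1 FAIRE library was made in each of the 2 conditions, with 1 input DNA library each that was not analysed here. Of 9 steroidogenic genes, 7 had a basal site within 10 kb, 8 an overexpression site and 9 a site of either kind, against 70.4%, 71.3% and 77.7% of all coding genes, so these counts are too few to check the cell type. NR5A1 itself had 2 basal sites and 0 overexpression sites.

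The deposited lists hold positions without read counts, so the depth of the libraries is unknown, and every difference between the conditions is one between single libraries with no replicate check. All 95% intervals below cover no more than counting error, since sites are no replicates of a condition. Where a list lacks a site, the site was not called, which does not show closed chromatin.

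LncRNAs are transcribed by RNA polymerase II, and are mostly spliced and capped like mRNAs, without coding for a protein. Some act in the nucleus on neighbouring genes, some build nuclear bodies, and others serve mainly as host transcripts whose introns release small nucleolar RNAs or microRNAs. Many lncRNAs start from the flank of a coding promoter or of an enhancer, so that those with a promoter of their own, away from coding genes, allow the lncRNA start to be looked at apart from a coding one.

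A few sequences show what these sites are made of. They are read from the forward strand of GRCh37, the assembly behind hg19, over the whole site as it was listed. The first pair were the earliest shared sites under 300 bp, with every CG dinucleotide in capitals. The SNHG30 site, chr17:33894901-33895199, spans the start of a host gene of small nucleolar RNAs and holds 23 CG dinucleotides at a GC content of 61.9%. The ENSG00000286817 site, chr15:83419101-83419399, holds 21 at 59.9%, and in the overexpression list the same position lay nearest to the start of SNHG21.
SNHG30: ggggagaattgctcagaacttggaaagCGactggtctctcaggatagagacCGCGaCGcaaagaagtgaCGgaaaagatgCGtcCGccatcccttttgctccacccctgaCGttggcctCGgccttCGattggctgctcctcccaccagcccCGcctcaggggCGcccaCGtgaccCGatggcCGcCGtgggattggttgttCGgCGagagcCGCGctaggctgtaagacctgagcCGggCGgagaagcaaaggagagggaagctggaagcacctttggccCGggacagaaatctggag
ENSG00000286817: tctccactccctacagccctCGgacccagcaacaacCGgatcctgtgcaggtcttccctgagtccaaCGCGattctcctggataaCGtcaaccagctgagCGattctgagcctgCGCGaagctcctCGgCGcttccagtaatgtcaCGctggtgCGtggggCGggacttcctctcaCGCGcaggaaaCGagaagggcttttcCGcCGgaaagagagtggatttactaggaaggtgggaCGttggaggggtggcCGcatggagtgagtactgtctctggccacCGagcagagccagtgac

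The remaining sequences are the earliest basal-only and overexpression-only sites with an SF-1 motif and with a CTCF motif, under the same limits. The capitals mark only the match of the motif for which each site was chosen. The LINC00963 site, chr9:132245701-132245999, and the RORA-AS1 site, chr15:60813001-60813299, were called at basal SF-1 expression alone, and both matches lie on the reverse strand. The LINC01140 site, chr1:87597501-87597749, and the ENSG00000235819 site, chr9:89029301-89029549, were called with SF-1 overexpression alone, and both matches lie on the forward strand. The LINC01140 site, chosen for its SF-1 motif, also holds a CTCF match with 1 mismatch, left in lower case (acactaggtggc). The ENSG00000235819 and RORA-AS1 sites hold 2 CG dinucleotides each at GC contents of 34.1% and 39.5%, against 21 at 66.7% in the LINC01140 site and 17 at 61.5% in the LINC00963 site.
LINC00963: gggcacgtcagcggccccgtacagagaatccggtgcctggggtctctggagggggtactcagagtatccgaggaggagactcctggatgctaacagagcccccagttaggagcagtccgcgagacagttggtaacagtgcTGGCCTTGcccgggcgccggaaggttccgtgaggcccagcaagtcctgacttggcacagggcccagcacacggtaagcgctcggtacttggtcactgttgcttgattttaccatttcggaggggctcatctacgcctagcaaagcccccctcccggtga
RORA-AS1: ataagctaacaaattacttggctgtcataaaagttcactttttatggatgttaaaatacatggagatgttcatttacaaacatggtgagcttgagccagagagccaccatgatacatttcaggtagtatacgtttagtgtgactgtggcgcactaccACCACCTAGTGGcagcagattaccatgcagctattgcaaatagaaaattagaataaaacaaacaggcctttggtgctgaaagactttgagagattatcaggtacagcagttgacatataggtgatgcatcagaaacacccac
LINC01140: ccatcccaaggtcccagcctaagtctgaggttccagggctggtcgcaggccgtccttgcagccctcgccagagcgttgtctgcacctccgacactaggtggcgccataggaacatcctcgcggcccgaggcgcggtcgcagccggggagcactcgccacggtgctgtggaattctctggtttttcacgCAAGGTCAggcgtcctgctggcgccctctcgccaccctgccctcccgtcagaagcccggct
ENSG00000235819: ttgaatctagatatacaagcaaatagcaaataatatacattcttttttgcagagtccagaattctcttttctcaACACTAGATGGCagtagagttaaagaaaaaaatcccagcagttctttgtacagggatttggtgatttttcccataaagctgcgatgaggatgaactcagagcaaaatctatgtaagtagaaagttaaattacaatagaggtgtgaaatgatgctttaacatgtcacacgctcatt

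To ask how far the same lncRNA promoters were open at both SF-1 dosages, a site counted as shared if 1 bp or more of it was also covered by a site of the other condition. In the basal list 595 of the 882 lncRNA promoter sites were shared (67.5%, 95% interval 64.3 to 70.5), against 54.2% of all basal sites, and 287 were basal-only (32.5%), against 45.8% of all. In the overexpression list 597 of the 889 were shared (67.2%, 64.0 to 70.2), against 59.7% of all sites of that list, and 292 were overexpression-only (32.8%), against 40.3% of all. Of the 595 shared basal sites, 593 overlapped a site that met the rule in the other list too, and 88 had the same start and end in both lists.

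The lncRNA promoter sites stood between coding promoters and the remaining distal sites in how often they were shared. Coding promoter sites are those centred within 1 kb of a protein-coding start, and other distal sites are those farther than 5 kb from every coding start and within 200 kb of one that have no lncRNA start within 1 kb. The share of lncRNA promoter sites that were shared was lower than that of coding promoter sites, with a difference of -11.5 percentage points in the basal list (interval -14.8 to -8.43) and of -9.03 points with overexpression (-12.3 to -5.91). It was higher than that of other distal sites by 24.1 points (20.8 to 27.2) and 15.9 points (12.6 to 19). Base composition moved with these differences. With the other distal sites weighted to the GC content of the lncRNA promoter sites, the difference was 8.91 points in the basal list and 14.2 points in the overexpression list, and with coding promoters weighted in the same way it was -2.81 and -5.37 points.

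**Figure D1:**
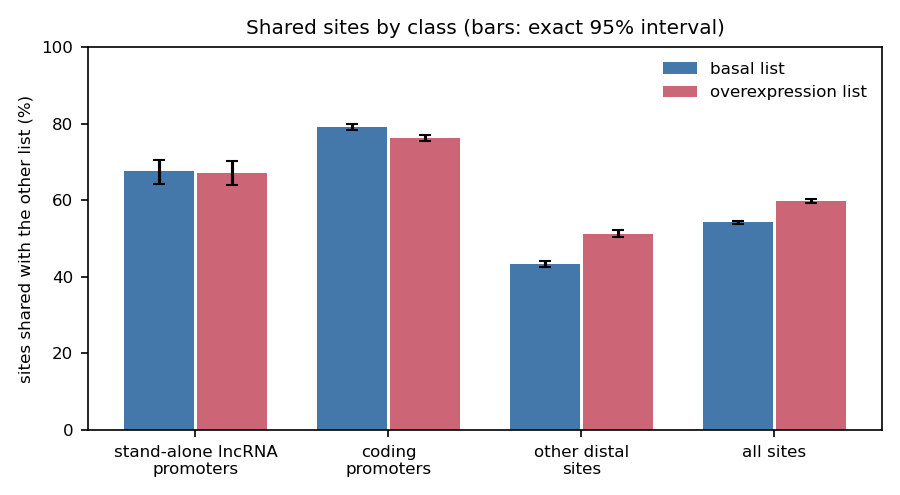
Share of FAIRE sites shared with the other list (vertical axis, %) for stand-alone lncRNA promoters, coding promoters, other distal sites and all sites, in the basal (blue) and overexpression (red) lists, with exact 95% intervals for counting error. LncRNA promoter sites, at 67.5% and 67.2%, stand between coding promoters and other distal sites in both lists.

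The number of open lncRNA promoter sites was nearly equal at both dosages. The ratio of overexpression to basal sites was 1.01 (0.917 to 1.11), while it was 0.907 (0.893 to 0.921) over all sites, 1.03 (1.01 to 1.06) at coding promoters and 0.847 (0.828 to 0.866) at other distal sites. Among condition-only sites the ratio of overexpression-only to basal-only was 1.02 (0.861 to 1.20) at lncRNA promoters, against 0.798 (0.779 to 0.817) over all sites, 1.17 (1.11 to 1.24) at coding promoters and 0.729 (0.706 to 0.752) at other distal sites. The interval at lncRNA promoters thus held 1 and lay above the intervals of all sites and of other distal sites. This comparison took no account of GC content. Within each class of GC content, given below, the interval at lncRNA promoters held the ratio over all sites. Leaving aside which list a site came from, the sites merged into 1175 positions, of which 596 were shared, 287 basal-only and 292 overexpression-only.

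Seen from the annotation, most stand-alone lncRNAs had no called site. Of 10448 lncRNA genes with at least 1 start in the distance range of the rule, 900 (8.61%) had a site centred within 1 kb of such a start in the basal list and 912 (8.73%) with overexpression. In both lists 665 had one, 235 in the basal list alone and 247 in the overexpression list alone, so that 1147 had one in either list. For the 20098 protein-coding genes the shares were 46.4% and 48.6%. The positions lay nearest to 1028 lncRNA genes, of which 561 carry an Ensembl identifier in place of a symbol. Single positions were the rule, with 899 of the 1028 genes having 1, 115 having 2, 12 having 3 and 2 having more. At 487 genes all positions were shared, at 223 all were basal-only, at 231 all were overexpression-only, and 16 genes had both a basal-only and an overexpression-only position.

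Sites gathered just upstream of the lncRNA start. The median distance of the centre from the start was 149 bp in the basal list and 145 bp with overexpression, and 66.3% and 64.0% of centres lay upstream. The start itself lay inside 409 basal sites (46.4%) and 431 overexpression sites (48.5%). A site of the other condition was found for 80.9% of the basal sites that spanned the start, against 55.3% of those centred over 500 bp from it and not spanning it, a difference of 25.6 points (17.8 to 33.3). In the overexpression list the shares were 78.2% and 56.2%, a difference of 22 points (14.3 to 29.7). Sites that did not span the start but were centred up to 500 bp from it were shared in 56.2% (basal) and 57.3% (overexpression). These shares were near those of the sites farther away. Sites that spanned the start were also wider in both lists, those over 500 bp away having a median of 249 bp in the basal list and of 199 bp with overexpression, and richer in GC (59.2% ± 10.6 against 49.1% ± 10.4 in the basal list, SD over sites, and 60.5% ± 9.86 against 51.3% ± 10.1 in the overexpression list). Whether width or GC content carries the difference in sharing was not tested.

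**Figure D2:**
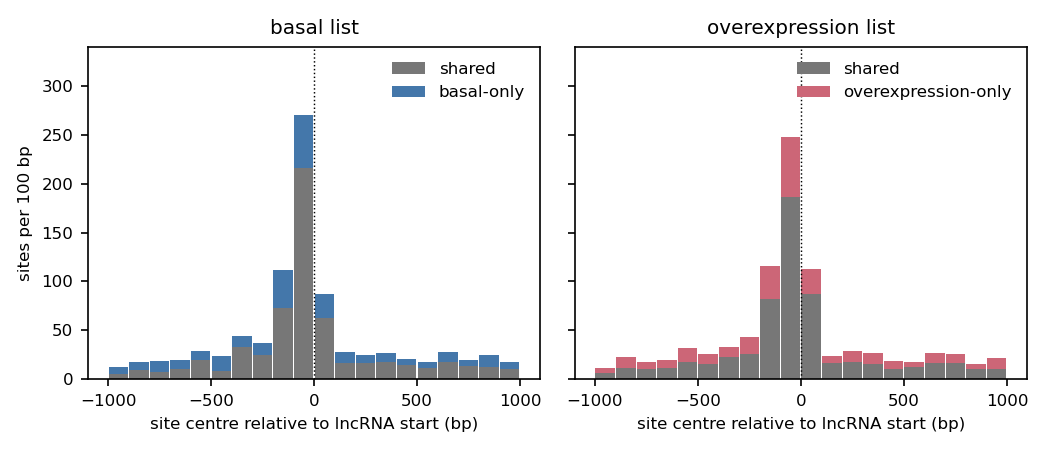
Number of lncRNA promoter sites per 100 bp (vertical axis) by the position of the site centre relative to the nearest lncRNA start (horizontal axis, bp, negative values upstream), split into shared (grey) and condition-only (coloured) sites, for the basal list (left) and the overexpression list (right). Shared sites pile up in the 100 bp before the start, with 216 in the basal list, while condition-only sites are spread more widely.

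Most of these sites lay outside coding genes, namely 721 of the basal list (81.7%) and 745 of the overexpression list (83.8%). A further 111 and 109 lay inside a coding gene on the strand opposite to the lncRNA, and 46 and 33 inside one on the same strand. The centre fell in an exon of a coding gene for 20 basal and 21 overexpression sites. Of the sites outside coding genes 505 basal and 508 overexpression sites (68.2%) were shared, and sites inside one on the opposite strand in 59.5% (49.7 to 68.7) and 61.5% (51.7 to 70.6). By symbol, LINC genes had 167 basal and 176 overexpression sites, antisense genes (-AS) 96 and 94, and genes with an Ensembl identifier 477 and 462, and these 3 groups were shared in 65.0% to 71.3% of cases in either list.

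The sites nearest the limits of the rule are given as a description. With a lncRNA start 900 to 1000 bp away, 15 of 30 basal and 16 of 33 overexpression sites were shared, and just beyond 1000 bp, by up to 100 bp, 13 of 24 and 13 of 22 were. With the coding start 5 to 6 kb away, 17 of 25 and 18 of 29 were shared, and with it 4 to 5 kb away, 24 of 32 and 23 of 31. In the last 10 kb inside the limit of 200 kb, 2 of 4 basal and 2 of 2 overexpression sites were shared, and in the first 10 kb beyond it 4 of 8 and 4 of 10.

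Site width ran from 99 to 1049 bp in the basal list and from 99 to 1199 bp in the overexpression list, with a median of 249 bp in both. Shared sites had a median of 249 bp and condition-only sites one of 199 bp in either list. Sharing rose with width. In the basal list 52.4% of sites under 200 bp were shared, 71.5% of those from 200 to under 300 bp, 88.4% of those from 300 to under 400 bp and 89.9% of those of 400 bp and over, and in the overexpression list the shares were 51.3%, 68.8%, 87.1% and 93.5%. Shares by width were not computed over all sites. Altogether the lncRNA promoter sites covered 234 kb and 242 kb.

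The widest sites differed in how much repeated sequence they held. In the basal list they were at ENSG00000288075 (1049 bp), ENSG00000248787 (999 bp) and ENSG00000289462 (849 bp), and in the overexpression list at LINC02021 (1199 bp), ENSG00000288075 (1149 bp) and LINC-PINT (1099 bp). At ENSG00000248787 and LINC02021, 54.8% and 54.9% of the site lay in windows of 32 bases that occur more than once in the genome, and at ENSG00000288075 this share was 42.7% in the basal list. At LINC-PINT, a p53-induced lncRNA, and at ENSG00000289462 it was 0. Sites more than 50% repeated made 51 of the basal (5.78%) and 53 of the overexpression (5.96%) lncRNA promoter sites, against 1.36% and 1.72% of all sites, so reads there could have been placed at another copy. Without them the shared shares were 67.6% and 67.5%.

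The GC content of lncRNA promoter sites lay between that of coding promoters and that of other distal sites. It was 55.0% ± 12 in the basal list and 56.7% ± 11.2 with overexpression (SD over sites), against 61.9% and 63.3% at coding promoters and 42.8% and 45.4% at other distal sites. The ratio of observed to expected CG dinucleotides was 0.531 and 0.544, against 0.748 and 0.761 at coding promoters and 0.232 at other distal sites of both lists. Shared lncRNA promoter sites had a mean GC content of 57.6% in both lists. Basal-only sites were the poorest at 49.6% ± 11.8, and overexpression-only sites had 54.8% ± 12.1, a difference of 5.21 percentage points.

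Which dosage the condition-only sites came from followed their GC content. Below 40% GC there were 36 overexpression-only and 61 basal-only sites, a ratio of 0.590 (0.380 to 0.905). At 60 to 70% GC there were 64 and 34, a ratio of 1.88 (1.22 to 2.94), and at 70% GC and over there were 37 and 20, a ratio of 1.85 (1.05 to 3.36). In the classes between, the intervals of the ratio held 1, with 0.540 to 1.01 at 40 to 50% GC and 0.809 to 1.57 at 50 to 60%. Over all sites the same classes gave 0.443 below 40% GC, 1.99 at 60 to 70% and 1.69 at 70% and over, so the dependence was not particular to lncRNA promoters. The classes between gave 0.813 (0.780 to 0.846) at 40 to 50% over all sites. At 50 to 60% there were 2624 overexpression-only and 1749 basal-only sites, with an interval of the ratio from 1.41 to 1.59. In each class the interval at lncRNA promoters held the ratio over all sites. A difference in base composition between 2 single libraries cannot be told apart from the change in SF-1 dosage.

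**Figure D3:**
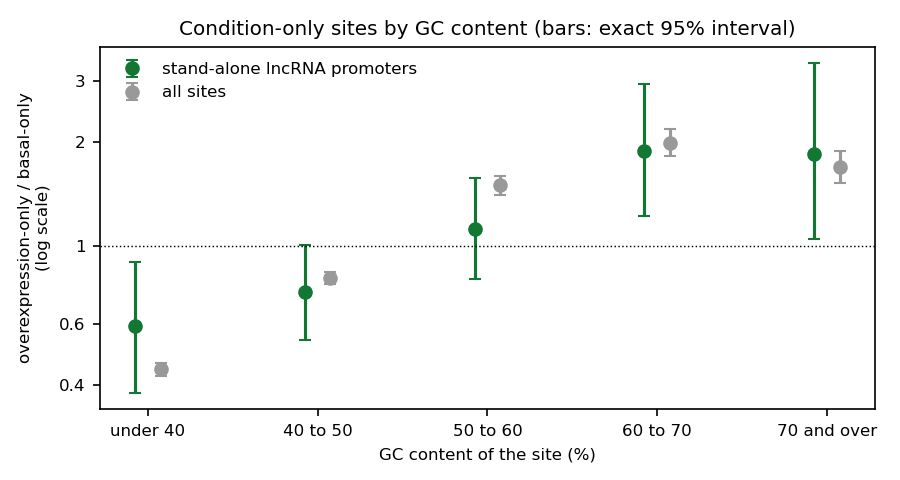
Ratio of overexpression-only to basal-only sites (vertical axis, log scale) in 5 classes of GC content (horizontal axis, %), for lncRNA promoter sites (green) and all sites (grey), with exact 95% intervals. In both sets the ratio is below 1 under 40% GC and above 1 from 60% GC upwards.

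Both strands of each site were searched for motifs over its full width. The SF-1 motif was CAAGGCCA or CAAGGTCA, its composition control GACACGCA or GACATGCA, the AP-1 motif TGACTCA or TGAGTCA, the ETS motif CCGGAAGT and the GATA motif AGATAA, while the CTCF and NRSF/REST motifs were longer consensus sequences with up to 1 and 4 mismatches. SF-1 binds the first of these as a monomer, CTCF is the factor of insulators and chromatin loops, and ETS factors bind many promoters of broadly expressed genes. A match describes the letters of the site and not binding of the factor.

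The SF-1 motif was found in 91 basal lncRNA promoter sites (10.3%, 8.39 to 12.5) and in 82 overexpression sites (9.22%, 7.40 to 11.3). Sequence of equal length lying 1000 bp beyond the ends held it in 3.51% and 3.21% of cases, a difference of 6.80 points (4.73 to 9.11) and 6.02 points (4.06 to 8.22). The control was found in 0.794% and 1.35% of the sites and in 1.36% and 1.29% of the flanks. It was thus rarer than the SF-1 motif in the flanks too, so the shares of the control and the SF-1 motif in the sites cannot be compared directly. All basal sites held the SF-1 motif in 12.7% of cases and all overexpression sites in 12.6%. Compared with other distal sites, the lncRNA promoter sites held it less often, by 6.39 points in the basal list (difference -6.39, -8.32 to -4.14) and by 7.79 points in the overexpression list (difference -7.79, -9.64 to -5.62). Compared with coding promoters they held it more often, by 5.99 points (4.11 to 8.21) and 4.49 points (2.71 to 6.61). Among basal lncRNA promoter sites its share was 11.9% below 40% GC, 17.6% at 40 to 50% and 11.3% at 50 to 60%. It was 4.61% at 60 to 70% and 2.86% at 70% and over. With overexpression the same classes gave 14.9%, 10.8%, 13.0%, 5.10% and 4.27%. The motif differences between classes of sites were not weighted by GC content.

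The share of condition-only sites with the SF-1 motif was compared between the dosages. The motif was found in 30 of the 292 overexpression-only sites (10.3%) and in 41 of the 287 basal-only sites (14.3%), a difference of -4.01 points with an interval from -9.43 to 1.36 that held 0. The flanks of these sites held it in 1.54% and 2.96% of cases, and the shared sites of the overexpression and basal lists in 8.71% and 8.40%. Over all condition-only sites the shares were 14.0% with overexpression and 13.4% at basal expression. The GATA motif was less frequent in overexpression-only than in basal-only sites (8.90% against 15.3%, difference -6.43, -11.8 to -1.10), but its share in the flanks (11.1% and 15.3%) was at or above that in the sites. The order was the same over all condition-only sites (12.4% against 16.2%), so it was not particular to lncRNA promoters. For CTCF the difference was -3.06 points (-9.24 to 3.11), and for AP-1 it was 0.908 points (-3.47 to 5.30). At the number of condition-only sites available, differences of several points could not be resolved.

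The CTCF motif was the most frequent of those searched, in 175 basal sites (19.8%, 17.3 to 22.6) and 166 overexpression sites (18.7%, 16.2 to 21.4), against 2.32% and 2.14% of the flanks. The whole lists held it in 17.5% and 16.1% of sites. Coding promoters held it less often (9.92% and 9.79%), while the difference from other distal sites was -1.70 points (-4.28 to 1.13) in the basal list and -1.17 points (-3.68 to 1.61) in the overexpression list. The ETS motif, rare at other distal sites (0.202% and 0.318%) and frequent at coding promoters (7.94% and 8.14%), was found in 20 (2.27%) and 24 (2.70%) lncRNA promoter sites, against 2.58% and 3.06% of all sites. AP-1 was found in 6.80% and 6.86% of lncRNA promoter sites, against 6.95% and 5.58% of all sites, and NRSF/REST in 2 and 3 sites. Of the basal and overexpression sites, 65.0% and 66.4% held none of the SF-1, CTCF, AP-1 and ETS motifs, and 11 and 10 held both an SF-1 and a CTCF motif, with no overlap between the 2 first matches.

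Sites that spanned the start and sites beside it differed in these motifs. Sites that spanned the lncRNA start held the ETS motif in 4.40% of basal and 5.10% of overexpression cases, against 0.485% and 0.476% of those centred over 500 bp away (differences of 3.92 points, 1.19 to 6.40, and 4.63 points, 1.86 to 7.16). For the SF-1 motif the order was the opposite, with 6.11% and 5.34% of spanning sites against 16.0% and 12.9% of those over 500 bp away (differences of -9.91 points, -15.9 to -4.73, and -7.52 points, -13.0 to -2.89). The CTCF motif was found in 14.9% and 16.2% of spanning sites against 27.7% and 24.3% (differences of -12.8 points, -19.9 to -5.95, and -8.04 points, -15.0 to -1.53). The AP-1 motif did not separate them, with differences of -0.432 points (-5.40 to 3.72) and -0.390 points (-4.89 to 3.26). Sites beside the start with centres up to 500 bp from it held the ETS motif in 0.375% and 0.403% of cases, near the sites farther away. They held the SF-1 motif in 12.4% and 12.9%, the CTCF motif in 21.3% and 18.1% and the AP-1 motif in 5.24% and 9.27%. Sites that spanned the start were also wider and richer in GC. Whether width or GC content carries these motif differences was not tested.

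**Figure D4:**
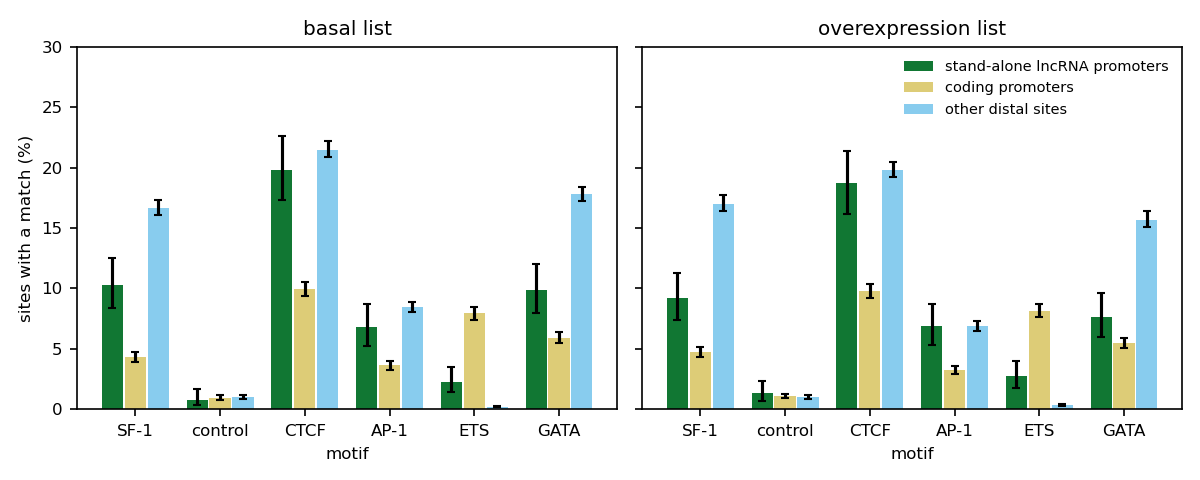
Share of sites with a motif match (vertical axis, %) for 6 motifs (horizontal axis) in lncRNA promoter sites (green), coding promoter sites (yellow) and other distal sites (blue), for the basal list (left) and the overexpression list (right), with exact 95% intervals. LncRNA promoter sites lie between the other classes for SF-1, GATA and ETS, and near other distal sites for CTCF.

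Within each list the sites carry a running number. What set this order is not stated in the sources used here, but early sites were wider than late ones. The first 10% of the basal list held 90 lncRNA promoter sites, of which 88 were shared, and that of the overexpression list held 83, of which 80 were shared. The number is given here as place, the percentage of the list at which a site stood, so that a low place is an early one. The median place of lncRNA promoter sites was 46.3 in the basal list and 44.1 with overexpression. Over all sites the shared ones stood earlier too. Their median place was 32.7 against 67.4 for basal-only sites, and 35.5 against 67.8 for overexpression-only sites. Sharing of early sites was thus not particular to lncRNA promoters, and its share over all sites in the first 10% was not computed. Across the 595 shared basal sites and their partners, which come from 1 library each, the places correlated with a Spearman rho of 0.626, against 0.737 at coding promoters and 0.481 at other distal sites. Of the 595, 311 stood earlier in the overexpression list (52.3%, 48.2 to 56.3) and 284 later, and 210 (35.3%) moved by more than 20 points. Over all shared basal sites rho was 0.630, 46.9% stood earlier and 36.7% moved by more than 20 points. Neither rho nor the share of large moves was thus particular to lncRNA promoters.

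The earliest shared site lay at the start of ENSG00000289474, which runs antisense inside KIF5C, a neuronal kinesin gene, and was number 14 of both lists with the same 499 bp, of which 14.1% was repeated sequence. It was followed by PCGF3-AS1 (places 0.270 and 0.247), ENSG00000260958 (0.561 and 0.429), MIRLET7A1HG, a host gene of let-7 microRNAs (0.787 and 0.208), and GBAP1, the transcribed pseudogene of the glucocerebrosidase gene (0.291 and 0.730). GBAP1 shares much sequence with its parent gene, although only 2.08% of this site was repeated at 32 bases. All of these sites spanned the lncRNA start.

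The shared sites that moved most were different ones. The largest moves to an earlier place with overexpression were seen at APOC1P1, where the site went from place 88 to 15 and grew from 149 bp, at ENSG00000268649, from 71.8 to 0.746 and from 349 to 499 bp, and at LINC02427, from 87 to 17.6, also growing from 149 bp. The ENSG00000268649 site lay 21.6 kb from a start of GNAS, the imprinted gene of the stimulatory G protein alpha subunit, and held an SF-1 motif. The largest moves in the other direction were at ENSG00000248559 (9.66 to 86.8, down to 199 bp), ENSG00000248984 (26.1 to 99, from 249 to 99 bp) and GIHCG (20.4 to 90.8, from 249 to 149 bp). In these 6 cases the site was wider in the list in which it stood earlier.

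Basal-only sites first appeared farther down the list than shared ones. The earliest was at ZNF503-AS1 (place 7.21, 449 bp, spanning the start), followed by RORA-AS1 (8.65), which runs antisense in the gene of the nuclear receptor RORA, FRMD3-AS1 (10.9), the collagen pseudogene COL6A4P1 (12.7) and LINC02197 (15.3, 65.1% repeated). The RORA-AS1 and FRMD3-AS1 sites held a CTCF motif. Overexpression-only sites began with ENSG00000259437 (place 2.64), whose site lay 974 bp upstream of the start and 145 kb from a start of SMAD3. Next were ENSG00000284959 (7.41), ENSG00000231252 (9.16), ENSG00000235819 (13.1) and LINC01303 (15.3), whose nearest coding starts were those of TSHR, NFIA, TUT7 and PRKCH. ENSG00000231252 and ENSG00000235819 held a CTCF motif, and none of these 10 condition-only sites held an SF-1 motif.

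Well-characterised lncRNAs were looked up from a list of 70 symbols, of which 58 are annotated as lncRNA genes and 44 have a start in the distance range of the rule. A site was found at 15 of these 44, shared at 8, basal-only at 3 and overexpression-only at 4. Among all lncRNA genes with such a start, 1147 of 10448 had a site in either list. MALAT1, the abundant RNA of nuclear speckles, had a shared site that spanned its start, 449 bp wide at place 13.2 in the basal list and narrower at 11.6 in the overexpression list. NEAT1, the RNA on which paraspeckles are built, had an overexpression-only site of 199 bp 445 bp upstream of its start at place 23.9. NORAD, a cytoplasmic RNA that binds Pumilio proteins, had an overexpression-only site of 199 bp across its start at place 52.1, with an ETS motif. The other two overexpression-only sites were at CASC15 (place 51.9) and DLEU1 (48.3).

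KCNQ1OT1, the imprinted antisense RNA that silences neighbouring genes in cis, had the largest move among the listed lncRNAs. Its shared site, 167 bp upstream of the start and antisense inside KCNQ1, went from place 64.9 and 199 bp in the basal list to 2.94 and 349 bp in the overexpression list. EPB41L4A-AS1 went from 66.5 and 199 bp to 17.6 and 249 bp. LINC00472 moved the other way, from 16.8 and 249 bp to 71.5 and 199 bp. DLEU2, in whose introns microRNAs are encoded, stayed early at 4.25 and 3.2 and had a further overexpression-only site at 92.6. DANCR stood at 8.94 in the basal list, and its partner in the overexpression list, at 8.62, was centred nearer to the start of LINC01618. FTX, a lncRNA of the X inactivation centre, was late in both lists (91.9 and 90.4), with the same 149 bp. LINC-PINT stood at 31.1 and 36.6. The basal-only sites were at CDKN2B-AS1 (place 54.6), the antisense RNA of the INK4 locus, MIAT (51.2, with a CTCF motif) and FIRRE (61.0). The CDKN2B-AS1 site lay 833 bp downstream of an annotated start and 110 kb from the nearest start of CDKN2B.

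**Figure D5:**
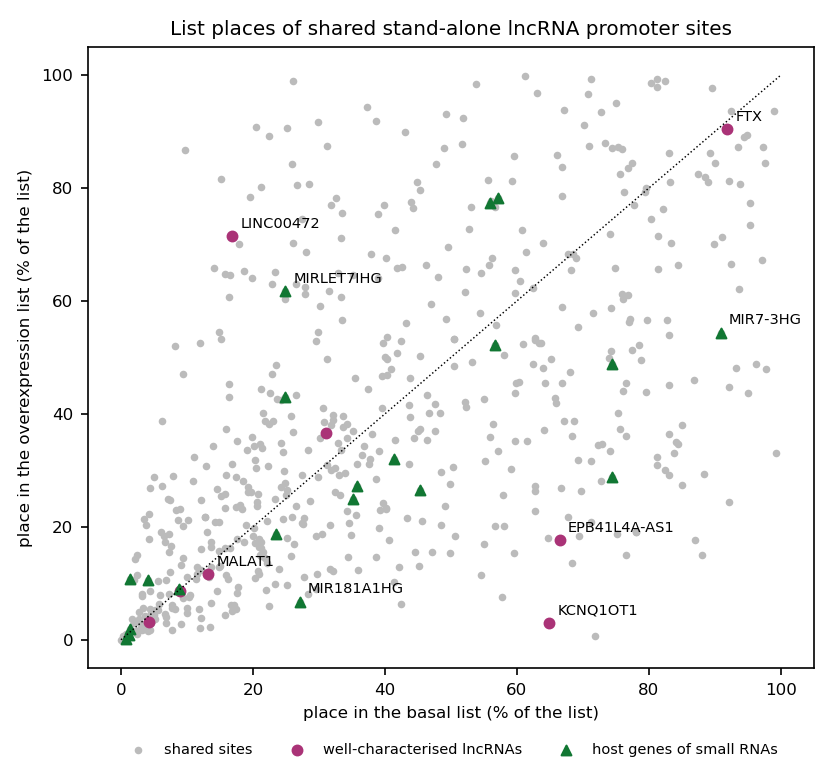
Place of the 595 shared lncRNA promoter sites of the basal list (horizontal axis, % of the list) against the place of their partners in the overexpression list (vertical axis, % of the list), with well-characterised lncRNAs (purple) and host genes of small RNAs (green) marked. KCNQ1OT1 lies far below the line of equal places, at 64.9 and 2.94, LINC00472 far above it, at 16.8 and 71.5, and MALAT1 and FTX near it.

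Host genes of small RNAs were looked up by symbol. Of 28 small nucleolar RNA host genes (SNHG), whose introns release small nucleolar RNAs, 19 have a start in the distance range and 12 had a site. The 12 were all in the overexpression list by name, 6 of them with a shared site and 6 with an overexpression-only site alone, while none had a basal-only site. In the basal list 5 were found by name, since the position of SNHG21 lay nearest to ENSG00000286817 there. The 6 overexpression-only sites were at SNHG6 (place 47.0, 199 bp), SNHG7 (34.2, 199 bp), SNHG11 (64.3, 199 bp), SNHG14 (69.3, 249 bp), SNHG15 (80.1, 149 bp) and SNHG17 (62.2, 249 bp). Their GC content was 71.4%, 75.4%, 69.3%, 34.5%, 68.5% and 57.0%, and apart from SNHG14 they spanned the start. Shared sites at SNHG30 (1.26 in the basal list and 0.862 with overexpression) and SNHG8 (1.39 and 10.8) were early in both lists, and SNHG12 (35.1 and 24.9) and SNHG25 (35.8 and 27.3) stood in the middle. For comparison, 1147 of all 10448 lncRNA genes with a start in the distance range had a site in either list. That count takes every gene with a start within 1 kb, while the 12 SNHG genes were found by the nearest start. Of the 1028 lncRNA genes named in that way, 231 had overexpression-only positions alone and 223 basal-only positions alone. The pattern at the 12 SNHG genes was picked out after the values had been seen, and no test of it was made.

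Of 81 microRNA host genes (symbols MIR to HG), 57 have a start in the distance range. A site was found at 18 of these 57, shared at 12, basal-only at 3 and overexpression-only at 3. Among all lncRNA genes the number with a site was 1147 of 10448. MIRLET7A1HG had a pair of shared sites 549 bp wide in the basal list, of which the earlier stood at 0.787 there and at 0.208 in the overexpression list. MIR9-1HG also had a pair of shared sites, the earlier at 1.10 and 1.06 with the same start and end. It had an overexpression-only site at a start farther along the gene (place 47.4). MIR181A2HG, antisense inside NR6A1, had a shared site at 1.33 and 1.99, a basal-only site at 27.3 and an overexpression-only site at 54.7, and MIR181A1HG moved from 27.1 to 6.72. MIR17HG, the host of a microRNA cluster that promotes the cell cycle, went from 24.9 to 43.0. It also had an overexpression-only site (49.2) with a CTCF motif and 77.1% GC. The sites called in one list alone were at MIR3681HG (88.2), MIR4300HG (62.9) and MIR3667HG (86.5) in the basal list and at MIR3142HG (82.9), MIR210HG (55.8), the host of a hypoxia-induced microRNA, and MIRLET7BHG (92.5) in the overexpression list.

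MIR100HG and LINC00963 had the most positions of all. At MIR100HG, which hosts microRNAs of the let-7 and miR-100 families, 6 positions were found along the gene, of which 2 were shared, 3 basal-only and 1 overexpression-only. The shared ones stood at 74.4 and 57.2 in the basal list and at 28.8 and 78.2 in the overexpression list. The basal-only ones stood at 47.1, 51.9 and 77.8, and the first of these held an SF-1 motif at the start it spanned. At LINC00963 4 positions were found, 1 shared (4.27 in the basal list and 22.3 with overexpression) and 3 basal-only (16.1, 37.9 and 40.5), and the first and the last of the basal-only sites held an SF-1 motif. None of the 4 was overexpression-only.

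LUCAT1, a stress-responsive lncRNA, showed the reverse, and it is named here because of its values. Its 3 positions were all overexpression-only, at places 62.7, 43.7 and 23.3, and lay 60.5 to 62.0 kb from the nearest start of ARRDC3. The first held a CTCF and an AP-1 motif and the last an SF-1 motif. DRAIC, also named for its values, had a shared site across its start at 3.62 and 4.23 and 2 overexpression-only sites at 70.1 and 16.5.

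ENSG00000274937, chosen in the same way, lies beside CYP11A1, the gene of the enzyme that starts steroid synthesis from cholesterol. It had 3 positions, all of them shared, 6.19, 6.79 and 7.76 kb from the nearest start of CYP11A1 in the basal list. They stood at places 63.6, 11.6 and 25 in the basal list and at 52.5, 12.8 and 25.7 in the overexpression list. The first was 149 bp wide in the basal list and 249 bp with overexpression, the middle one was wider with overexpression, and the last was narrower. The site at 6.79 kb held an SF-1 motif, and the sites on either side of it held a CTCF motif.

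Last, the coding neighbours were compared with genes that respond to SF-1. These genes come from expression arrays of the same cell line with SF-1 knocked down or overexpressed, and only their names were used. For genes lower on knockdown, 10 basal lncRNA promoter sites (1.13%) and 9 overexpression sites (1.01%) had such a gene as their nearest coding start, against 2.15% and 2.10% of other distal sites (differences of -1.02 points, -1.59 to -0.0568, and -1.09 points, -1.63 to -0.163). The 3 positions at ENSG00000274937 count among them in each list. For genes higher on overexpression the numbers were 9 (1.02%) and 14 (1.57%), of which 7 were shared in each list, with differences from other distal sites of -0.198 points (-0.713 to 0.723) and -0.370 points (-1.05 to 0.703). Genes lower on overexpression were next to 12 and 9 sites, with differences of -0.537 points (-1.16 to 0.485) and -0.405 points (-0.928 to 0.514). Genes higher on knockdown were next to 1 basal site (0.113%) and 2 overexpression sites (0.225%), against 0.728% and 0.60% of other distal sites (differences of -0.615 points, -0.785 to -0.0757, and -0.375 points, -0.592 to 0.228). LEMD1-AS1 was the one lncRNA with a site that was itself among these names, on the side of genes lower on overexpression, and its shared site moved from place 21.2 and 249 bp to 44.5 and 349 bp and held an SF-1 motif in both lists.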

How the data were processed

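FAIRE sites were taken from the 2 peak lists that the authors deposited, 1 for each FAIRE library, with positions on hg19. Per the file headers, each line gives the chromosome, start, end, a running number, a score and a strand. The deposited score is 1000 for every site and was not used. The submitters' processing notes name CASAVA 1.8 and hg19, and the aligner, caller and threshold for FAIRE are not given in the sources used here. The input DNA libraries have no list and were not analysed here, so sequencing depth is unknown.

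Starts were the transcript starts of lncRNA and protein-coding genes of GENCODE release 44 mapped to GRCh37, and a site was named by the nearest lncRNA start. Such a start can lie inside a lncRNA gene, away from the first start of the gene. Shares have exact Clopper-Pearson, differences Newcombe and ratios exact binomial 95% intervals. With 1 library per condition no test was made and no p-value exists. Python 3.11.15, numpy 2.4.6, scipy 1.17.1, pandas 2.3.3 and pysam 0.24.0 were used, and the functions were tested on simulated lists.

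Named lncRNAs were those of the lists of well-characterised lncRNAs and host genes, the 5 earliest shared sites and the 5 earliest of each condition-only class, the 3 widest of each list, genes with 4 or more positions, the 3 largest moves in each direction and lncRNAs among SF-1-responsive genes. LUCAT1, DRAIC and ENSG00000274937 were named after their values were seen. The sites, lists and rules were chosen with earlier results of these data known. Alternatives covered the overlap rule, the distances, the choice of starts, width, repeated sequence, and weighting by GC content or width.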

Additional observations from a re-analysis of the deposited data

How the results depend on the processing

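Each of 18 results was recomputed under the alternatives, giving 90 values, of which 63 stayed within the interval of the value reported (for numbers of sites, within 1.5 times). The sign changed for 2 results whose reported intervals held equality (1 for the ratio, 0 for the difference). The ratio of overexpression-only to basal-only sites was 0.991 with the 5-prime ends of lncRNA genes as starts. The CTCF motif difference from other distal sites was 0.206 points (overexpression) with weighting by width. With sites no narrower than the median, 521 basal and 544 overexpression sites remained, and 77.9% and 77.2% were shared. Overlap of at least 50% of both sites gave shared shares of 59.5% and 59.3%, and a site within 500 bp gave 71.4% and 70.8%. With centres within 500 bp of a lncRNA start the shares were 71.2% and 70.5%, the differences from coding promoters -7.85 and -5.68 points, and those from other distal sites 27.8 and 19.3 points. With the 5-prime ends of lncRNA genes as the only starts, 711 basal and 717 overexpression sites met the rule. The overexpression list then gave 70.6%, -5.61 points and 19.3 points. Weighting by GC content gave -2.81 points (basal) and -5.37 points (overexpression) against coding promoters and 8.91 points (basal) against other distal sites. Weighting by width gave -7.28 points (basal) and -3.86 points (overexpression) against coding promoters, 11.8 points (overexpression) against other distal sites, and -9.84 points for the SF-1 motif in the overexpression list. In the 500 bp around the centre the SF-1 motif was found in 12.9% and 12.3% of sites and the CTCF motif in 21.9% of overexpression sites. The cause of these shifts was not tested beyond the change each setting makes.

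Sites more than 50% repeated were left out as an alternative chosen after seeing the data, because the genome sequence used marks no repeats, so that an alternative on masked repeats was not run. No paired analysis was possible because each condition has 1 library. Depth is unknown, so how many sites missed the threshold in one list alone cannot be told.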
